A study of Mus musculus with 24 samples.

Results

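The collagen chain genes are the 44 protein-coding genes, of 56691 genes in the count table, whose symbol is Col, a type number, the letter a and a chain number. All 44 were followed through uterine tissue and endometriotic lesions of a surgical mouse model of endometriosis, the growth of uterine tissue outside the uterus. They fall into 11 fibrillar genes, 6 type IV genes of basement membranes, 3 genes of types VII, XV and XVIII at the basement membrane zone, 7 genes of type VI and the related type XXVIII, 9 fibril-associated genes, 3 network genes of types VIII and X, 4 transmembrane genes and Col26a1. The 24 RNA libraries make 6 groups of 4: ectopic lesions at 3 months and at 1 month after surgery, the eutopic uterus (the uterus of the mice with endometriosis) at 3 months and at 1 month, and the uterus of sham-operated mice at 3 months and at 1 month. Surgery was done at 8 weeks of age, tissue was taken on pregnancy day 3.5, and all mice were on a mixed C57BL/6 and SV129 background.

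By the labels, the mice with endometriosis were subfertile at 3 months and fertile at 1 month, and sham mice were fertile at both times. Genotype is given as Pgrcre/+Rosa26mTmG/+ for lesions and as Rosa26mTmG/+ for eutopic and sham uterus, whereas the series text gives Pgrcre/+Rosa26mTmG/+ for the mice with endometriosis. Pgrcre expresses Cre recombinase where the progesterone receptor gene is active, and mTmG is a membrane fluorophore reporter that Cre switches. If the labels hold, lesions differ from eutopic uterus in genotype as well as tissue, and if the series text holds, eutopic differs from sham uterus in genotype as well as surgery; in either case the effects of the 2 cannot be told apart. Mice at 3 months were older than mice at 1 month.

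Collagens are triple-helical proteins of the extracellular matrix, each built from α chains that are the products of separate genes. Fibrillar types I, III and V form the tensile fibres of connective tissue, type IV forms the sheet under epithelium and endothelium and around muscle cells, type VI forms beaded filaments between the basement membrane and the fibres, and fibril-associated chains coat fibre surfaces. In the uterus, fibrillar collagen fills the stroma and the muscle layer and is remodelled in early pregnancy, and fibrous tissue is a known feature of endometriotic lesions.

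Type IV genes lie in pairs that are transcribed away from each other, and the promoters of Col4a1 and Col4a2, which are such a pair, are shown because the results follow the ratio of these genes over the libraries. Both windows run from 250 bases before to 50 bases after the annotated start (RefSeq, GRCm38.p6, 5′ to 3′ on the gene's strand). Col4a1 is at chr8:11312777-11313076 on the minus strand and Col4a2 at chr8:11312555-11312854 on the plus strand. The 78 bases in capitals are the same DNA in both, read from opposite strands.
Col4a1: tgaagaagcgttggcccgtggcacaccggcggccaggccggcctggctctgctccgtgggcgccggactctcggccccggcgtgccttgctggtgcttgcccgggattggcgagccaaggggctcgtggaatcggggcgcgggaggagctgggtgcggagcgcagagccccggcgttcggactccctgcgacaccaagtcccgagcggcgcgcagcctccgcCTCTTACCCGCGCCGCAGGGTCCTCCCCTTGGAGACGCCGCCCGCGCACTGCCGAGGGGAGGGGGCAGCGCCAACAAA
Col4a2: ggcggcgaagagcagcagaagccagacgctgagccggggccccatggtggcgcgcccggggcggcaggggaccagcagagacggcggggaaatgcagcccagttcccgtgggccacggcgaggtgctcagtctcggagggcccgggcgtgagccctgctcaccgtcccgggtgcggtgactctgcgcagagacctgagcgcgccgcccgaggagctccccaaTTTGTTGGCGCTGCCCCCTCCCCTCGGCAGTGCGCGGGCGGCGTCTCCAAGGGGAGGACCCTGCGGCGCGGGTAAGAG

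Col8a1 and Col8a2, which encode the chains of type VIII collagen, lie on different chromosomes and were both higher in lesions. Their windows of the same extent are at chr16:57754688-57754987 on the minus strand and chr4:126286544-126286843 on the plus strand. Capitals mark GGGCGG or its reverse complement, the core of a GC box, and in Col8a2 the last pair of matches overlap.
Col8a1: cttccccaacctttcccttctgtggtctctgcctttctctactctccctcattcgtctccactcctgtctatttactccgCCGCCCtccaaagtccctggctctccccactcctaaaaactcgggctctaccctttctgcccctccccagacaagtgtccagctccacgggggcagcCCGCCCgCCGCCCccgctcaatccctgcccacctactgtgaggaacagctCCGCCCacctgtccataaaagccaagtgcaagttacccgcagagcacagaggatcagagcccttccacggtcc
Col8a2: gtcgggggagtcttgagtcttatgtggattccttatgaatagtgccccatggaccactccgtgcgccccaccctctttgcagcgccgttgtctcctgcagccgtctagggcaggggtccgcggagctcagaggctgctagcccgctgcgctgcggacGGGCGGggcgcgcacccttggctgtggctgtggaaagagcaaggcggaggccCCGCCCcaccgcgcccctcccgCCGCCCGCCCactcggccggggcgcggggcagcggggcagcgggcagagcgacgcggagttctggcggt
Of 38 windows of 35 collagen genes that the RefSeq promoter table holds, 23 (60.5%) contain GGGCGG on either strand, against 11714 of 32851 windows of all genes (35.7%). CCAAT on either strand is in 13 of the 38 (34.2%) and in 37.4% of all windows. These matches are descriptions of letters only.

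Total counts were 4.51e+07 to 5.94e+07 per library. Levels are CPM, counts scaled to a common library size with TMM factors. Summed markers of the uterus (9 genes, all with counts in every library) were 890.4 to 3828 CPM in 3-month lesions, 3348 to 4794 in 1-month lesions, 4133 to 7040.0 in 3-month and 3881 to 6416 in 1-month eutopic uterus. Lesion libraries 1 and 2 at 3 months stood apart: Hoxa10, a homeobox gene of the uterus, was at 0.839 and 13.5 CPM there, against 389.7 to 420.0 in eutopic uterus of that time. Summed ovarian steroid cell markers reached 23054 CPM in library 1 and summed skeletal muscle markers 46001 CPM in library 2, against 11.9 to 15.8 and 114 to 175 CPM in 3-month eutopic uterus. Skeletal muscle markers also summed to 14574 and 7782 CPM in 3-month lesion libraries 3 and 4, and pancreas and liver markers to 79876 CPM in 1-month lesion library 2. Summed adipocyte markers (7 genes) were higher in every lesion library than in every eutopic library of its time, with 133 to 1890.0 CPM in 3-month and 189 to 921 CPM in 1-month lesions, against 23.3 to 103 and 27.2 to 157 CPM in eutopic uterus of those times. Among 3-month lesions they were highest in library 2, which was also highest for Col6a5, and lowest in library 1, which was next highest for Col6a5. The part of these cell types in the collagen results was not tested, and the main results are given with and without these 3 libraries (lesion libraries 1 and 2 at 3 months and lesion library 2 at 1 month). In bulk RNA, fewer cells of a type and less RNA per cell cannot be told apart.

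Collagen transcripts took 0.757% to 1.56% of all counts in 3-month lesions, 1.61% to 3.07% in 1-month lesions, 1.97% to 3.99% in 3-month eutopic, 1.72% to 3.07% in 1-month eutopic, 2.28% to 3.25% in 3-month sham and 2.52% to 3.09% in 1-month sham uterus. All 4 libraries of 3-month lesions lay below all 20 others. Genes were ranked by group mean per kilobase of exon (GENCODE M21 lengths, all exons of a gene merged). Col1a1, the α1 chain of type I collagen, ranked first of the 44 genes and Col3a1, the single chain of type III, ranked second in each of the 6 groups. Their mean levels per kilobase were 315 and 303 CPM in 3-month lesions, and 682 and 622 CPM in 3-month eutopic uterus. This order did not hold in every library. In 3-month lesion library 1, Col4a1 was at 1412 CPM (exon length 7464 bases), Col3a1 at 1068 (9816) and Col1a1 at 473 (6563). Col6a1, Col1a2, Col6a2 and Col4a1 held ranks 3 to 6 in every group, with the order of the last pair turned in 3-month lesions. Col8a1 ranked 19 and 22 in 3-month and 1-month lesions, and 34 or 35 in the 4 uterine groups. Col6a5 ranked 23 and 29 in 3-month and 1-month lesions, and 38 or 39 in uterus.

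Summed by class, fibrillar transcripts were 2978, 12149, 9930.3 and 8337 CPM in 3-month lesions, against 26778, 13431, 12660.3 and 10977 CPM in 3-month eutopic uterus. The groups overlapped, since lesion library 2 was above eutopic library 4. In 1-month lesions they summed to 19145, 11144, 17798 and 13147 CPM, against 18727, 11941, 10462 and 9663 CPM in 1-month eutopic uterus, again with overlap. The basement membrane zone class showed no overlap at 3 months: it summed to 296, 756, 587 and 477 CPM in lesions and 1627, 1256, 1589 and 1450.3 CPM in eutopic uterus. The type VI class also did not overlap at 3 months, narrowly, with 1694 to 3518 CPM in lesions and 3523 to 8459 CPM in eutopic uterus. The network class was the one class summed higher in every lesion library than in every eutopic library at both times, with 22.1, 104, 125 and 125 CPM in 3-month lesions, 59.9, 45.4, 47.1 and 38.0 in 1-month lesions, 15.0, 9.11, 15.9 and 10.1 in 3-month and 12.8, 10.9, 13.4 and 13.3 in 1-month eutopic uterus. Sums for sham uterus were 13272 to 19589 (3 months) and 14839 to 18849.5 CPM (1 month) for the fibrillar class and 12.5 to 14.8 and 12.6 to 23.2 CPM for the network class.

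**Figure D1:**
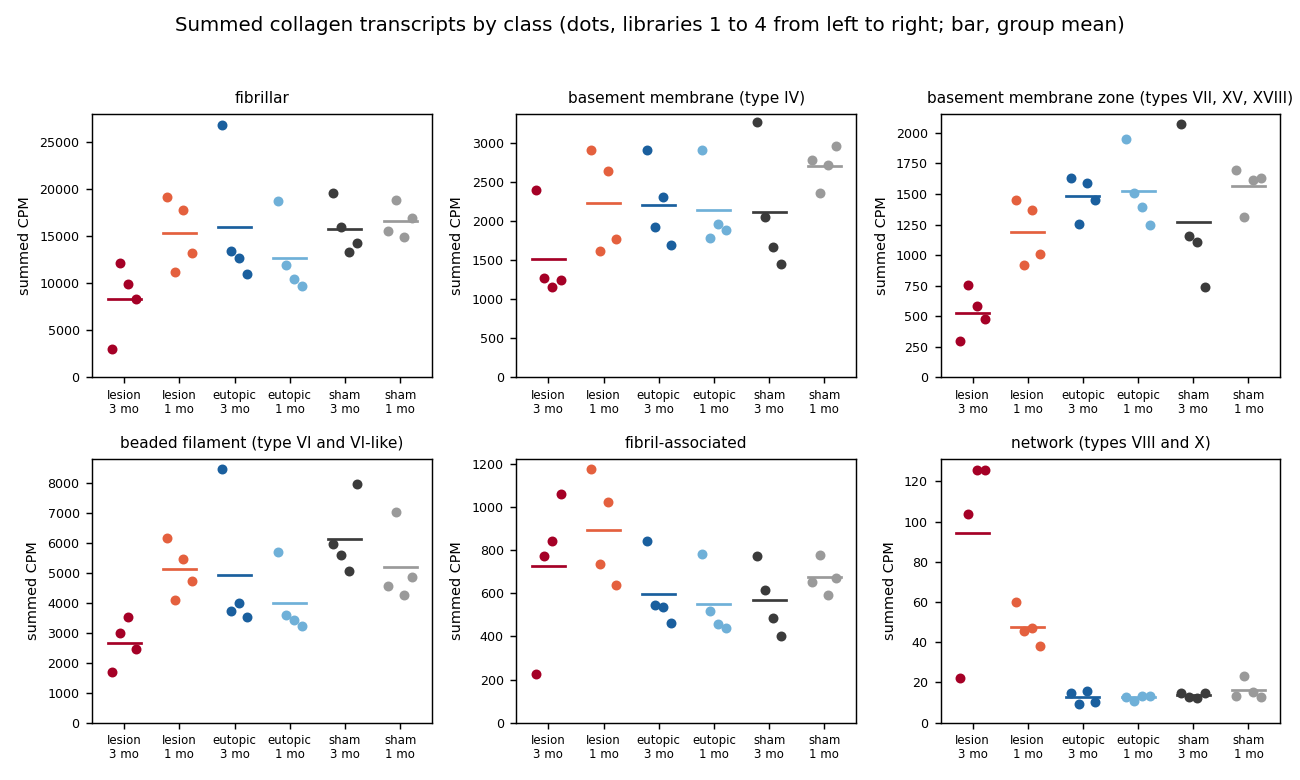
Summed CPM of 6 collagen classes (y axis, linear from 0) in each library of the 6 groups (x axis, lesion, eutopic and sham, 3 months left of 1 month); dots are libraries and bars are means of 4. The network class lies at 22.1 to 125 CPM in lesions and 9.11 to 23.2 CPM in uterus, with 3-month lesion library 1 and 1-month sham library 2 nearly level, whereas the other classes overlap between tissues in at least 1 time.

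Lesions were compared with eutopic uterus at each time, which asks how collagen transcripts of ectopic tissue differ from those of the uterus of mice with endometriosis. Calls were made where edgeR's quasi-likelihood test gave a p under 0.05 after Benjamini-Hochberg adjustment over all 22249 genes tested. Of the 44 collagen genes 41 were tested. Col2a1 and Col19a1 had too few counts, and Col10a1 had enough counts in too few libraries. At 3 months 17 of 41 (41.5%) were called, 5 higher and 12 lower, beside 40.5% of all genes (23.4% higher, 17.1% lower). At 1 month 6 of 41 (14.6%) were called, 4 higher and 2 lower, beside 20.6% of all genes (11.9% higher, 8.71% lower). Both shares lie near those of all genes. Split by direction at 3 months, 12.2% of the collagen genes were higher and 29.3% lower. An unadjusted p under 0.05 was reached by 21 collagen genes at 3 months, beside 49.1% of all genes, and by 7 at 1 month, beside 35.2%. 5 genes were called at both times in the same direction: Col8a1, Col8a2, Col6a5 and Col12a1 rose and Col22a1 fell. The median log2 fold change over the 41 genes was -0.52 at 3 months and 0.11 at 1 month, against 0.04 and -0.01 over all genes tested.

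Without the 3 libraries that stood apart, 22 of 43 collagen genes tested (51.2%) were called at 3 months (7 higher, 15 lower), beside 40.4% of all genes in that fit, and 7 (16.3%) at 1 month, beside 26.3%. That fit kept only lesion libraries 3 and 4 at 3 months, both with the skeletal muscle transcripts given above. Its filter on low counts could pass genes counted in those libraries alone, and it tested 43 collagen genes instead of 41. At 3 months, 9 of the 17 calls were kept under every alternative in which the gene was tested. The count was 10 of 42 (23.8%; 4 higher, 6 lower) without eutopic library 1, beside 37.4% of all genes, and 8 of 40 (20%; 4 higher, 4 lower) in a fit of the compared groups alone, beside 15.8%. Without the libraries that stood apart, the 3-month log2 change was 4.46 for Col8a1, 2.96 for Col6a5, -2.01 for Col22a1, -1.39 for Col4a6 and -1.89 for Col15a1. At 1 month, 5 of the 6 calls were kept under every alternative, the exception being Col22a1, and limma voom called 16 of 41 (39%), beside 45% of all genes. A 1-month fit of the compared groups alone called 8 of 40 (20%), beside 33.4%.

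**Figure D2:**
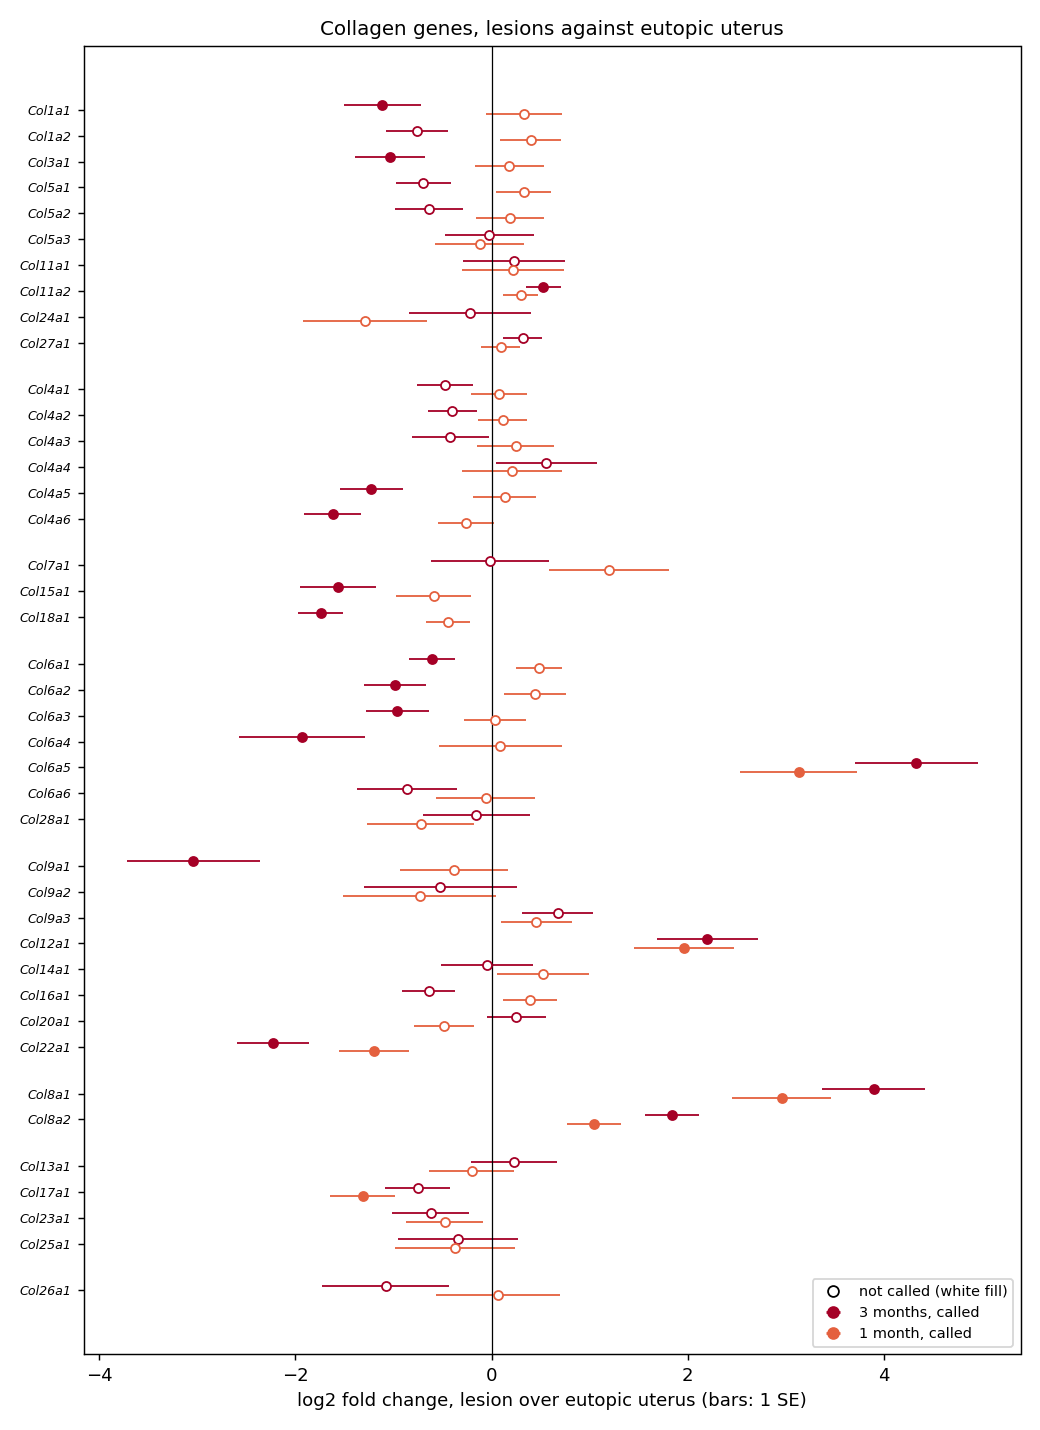
Log2 fold change of lesion over eutopic uterus (x axis, bars of 1 SE) for the 41 tested collagen genes (y axis, grouped from the top as fibrillar, type IV, basement membrane zone, type VI and XXVIII, fibril-associated, network, transmembrane and Col26a1), at 3 months (dark red, upper of each pair) and 1 month (orange), n = 4 libraries per group. Filled points are called in edgeR; Col8a1, Col8a2, Col6a5 and Col12a1 are filled right of 0 at both times, and 12 genes are filled left of 0 at 3 months.

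Type VIII collagen is a short-chain network collagen of vessel walls and of the membrane under corneal endothelium, and it is made during tissue repair. Col8a1 (ENSMUSG00000068196.6) was at 8.93, 54.8, 94.0 and 87.3 CPM in 3-month lesions, against 6.40, 3.11, 4.46 and 2.50 CPM in eutopic uterus. It was at 36.1, 31.0, 28.3 and 23.0 CPM in 1-month lesions, against 4.68, 3.59, 2.66 and 4.46 CPM in eutopic uterus. No lesion library overlapped eutopic uterus at either time, and 3-month lesion library 1 was the lowest lesion. Col8a1 rose 14.9-fold at 3 months (log2 3.89 ± 0.53, edgeR adjusted p = 2.31e-05) and 7.77-fold at 1 month (log2 2.96 ± 0.50, edgeR adjusted p = 0.00108). Col8a2, the partner chain, was at 13.1, 48.8, 27.0 and 31.2 CPM in 3-month lesions and 8.56, 6.00, 11.4 and 7.58 CPM in eutopic uterus, and at 23.8, 14.2, 18.7 and 14.9 CPM in 1-month lesions and 8.11, 7.29, 10.7 and 8.81 CPM in eutopic uterus. It rose by log2 1.84 ± 0.28 at 3 months and 1.05 ± 0.27 at 1 month (edgeR adjusted p = 6.00e-05 and 0.0117). The remaining gene of the class, Col10a1, which encodes the collagen of hypertrophic cartilage, was at 0.0373, 0.0233, 4.41 and 6.89 CPM in 3-month lesions, with counts of 2, 1, 222 and 326, and at 0 to 0.205 CPM in the other 20 libraries. It did not enter the test. Summed cartilage markers were 18.4 and 18.6 CPM in lesion libraries 3 and 4, against 15.5 to 87.0 CPM in 3-month eutopic uterus, and the cartilage matrix gene Acan was at 0.754 and 0.423 CPM there. Col10a1 overlaps Nt5dc1 in the RefSeq gene table, and whether counting used strand is not given in the sources used here. The part of cartilage cells or of shared reads in the Col10a1 counts was not tested.

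Type VI collagen is assembled from an α1, an α2 and a further chain, for which Col6a3, Col6a4, Col6a5 and Col6a6 give alternatives. Col6a5 (ENSMUSG00000091345.10) was at 18.7, 94.5, 14.9 and 12.4 CPM in 3-month lesions, against 2.77, 1.31, 1.27 and 1.62 CPM in eutopic uterus, and at 14.7, 11.4, 4.47 and 25.6 CPM in 1-month lesions, against 1.59, 1.68, 1.82 and 1.36 CPM in eutopic uterus. All lesion libraries were above all eutopic libraries of their time. It rose 20.1-fold at 3 months (log2 4.33 ± 0.63, edgeR adjusted p = 4.17e-05) and 8.76-fold at 1 month (log2 3.13 ± 0.60, edgeR adjusted p = 0.00218). 3-month lesion library 2, the one with most skeletal muscle transcripts, was the highest, and without it the 3-month log2 change was 3.14 (edgeR adjusted p = 5.94e-05).

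The more abundant type VI chains went the other way at 3 months. Col6a1 was at 831, 1307, 1417 and 1055 CPM in 3-month lesions, against 2779, 1446, 1482 and 1340.0 CPM in eutopic uterus, and at 2502, 1708, 2199 and 1917 CPM in 1-month lesions, against 2109, 1389, 1307 and 1187 CPM in eutopic uterus. Groups overlapped at both times. In edgeR at 3 months Col6a1 fell by 0.61 ± 0.23 on the log2 scale (adjusted p = 0.0424), Col6a2 changed by -0.98 ± 0.32 (adjusted p = 0.0176) and Col6a3 by -0.96 ± 0.32 (adjusted p = 0.0226). Col6a4 was at 238, 15.9, 245 and 64.3 CPM in 3-month lesions and 1212, 221, 359 and 360.3 CPM in eutopic uterus, a log2 change of -1.93 ± 0.65 (edgeR adjusted p = 0.0217). All 4 of these calls were lost without 3-month eutopic library 1, the highest of its group for each: the log2 changes were then -0.31, -0.65, -0.49 and -1.15, with edgeR adjusted p = 0.255, 0.0987, 0.178 and 0.143. At 1 month 0 of the 6 other genes of the class were called, with log2 differences of -0.72 (Col28a1) to 0.49 (Col6a1).

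Among fibril-associated genes, Col12a1 (ENSMUSG00000032332.18) encodes type XII collagen, which binds fibril surfaces in tendon, ligament and muscle connective tissue. It was at 62.9, 293, 415 and 560.3 CPM in 3-month lesions, against 107, 81.7, 52.5 and 48.1 CPM in eutopic uterus, and at 334, 279.8, 357 and 163 CPM in 1-month lesions, against 140.1, 58.8, 42.5 and 51.6 CPM in eutopic uterus. 3-month lesion library 1, with the ovarian transcripts, lay inside the eutopic range, and the other 7 lesion libraries were above all eutopic ones. Col12a1 rose by log2 2.20 ± 0.52 at 3 months and 1.97 ± 0.51 at 1 month (edgeR adjusted p = 0.00219 and 0.0116), and by 2.75 at 3 months without the libraries that stood apart.

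Col22a1 encodes type XXII collagen, known from the junctions between muscle and tendon. It was at 2.33, 5.19, 2.38 and 8.09 CPM in 3-month lesions, against 26.1, 17.1, 17.3 and 23.96 CPM in eutopic uterus, and at 9.99, 5.23, 10.7 and 8.54 CPM in 1-month lesions, against 20.7, 19.5, 16.1 and 23.3 CPM in eutopic uterus. The groups did not overlap at either time. It fell by 2.23 ± 0.37 at 3 months and by 1.20 ± 0.35 at 1 month on the log2 scale (edgeR adjusted p = 0.000126 and 0.0224). The 1-month call was lost without 1-month lesion library 2 (edgeR adjusted p = 0.0764). Col9a1, a type IX chain of cartilage, was called lower at 3 months from counts of 2, 1, 1 and 0 in lesions, against 9, 3, 15 and 12 in eutopic uterus (edgeR adjusted p = 0.00153). Of the other tested genes of the class, Col9a2, Col9a3, Col14a1, Col16a1 and Col20a1 were not called at either time. Col14a1, whose product also coats fibrils, averaged 184 ± 123 CPM in 3-month lesions and 190.3 ± 58.7 CPM in the eutopic uterus (n = 4 each, ± SD).

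**Figure D3:**
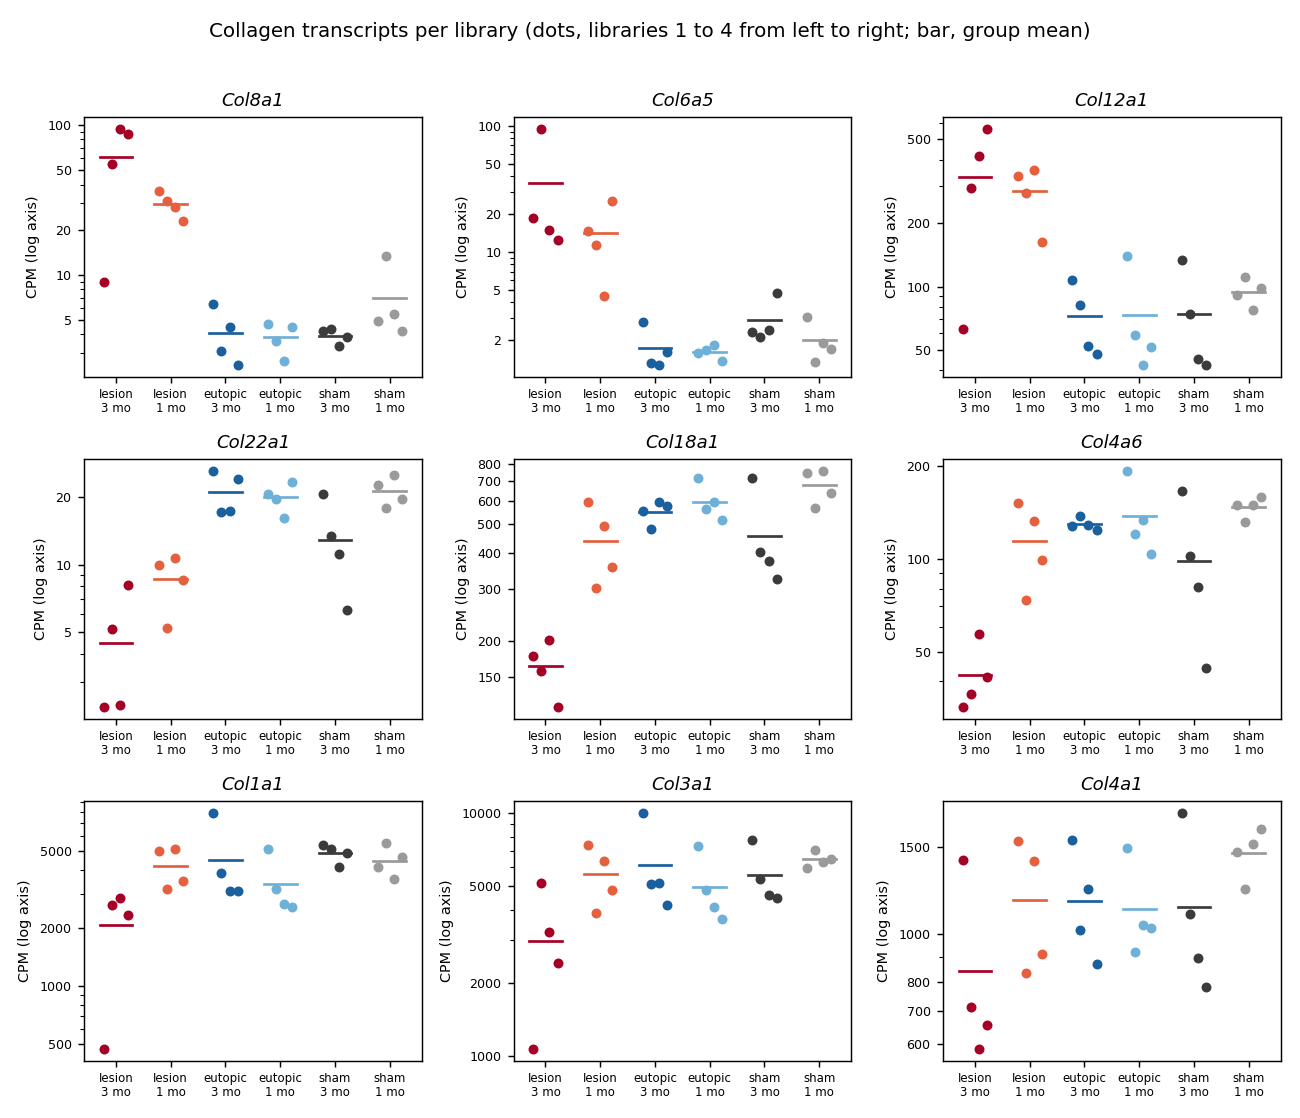
CPM (y axis, logarithmic) of 9 collagen genes in each library of the 6 groups (x axis, lesion, eutopic and sham, 3 months left of 1 month); dots are libraries 1 to 4 and bars are means. Col8a1 and Col6a5 lie higher in lesions than in eutopic uterus at both times, Col18a1 and Col4a6 lie low in 3-month lesions, at 119 to 201 and 33.1 to 57.1 CPM, and Col4a1 overlaps between tissues.

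Type IV collagen is assembled from α1 and α2 chains in nearly all basement membranes, and from α3, α4, α5 and α6 chains in some. Col4a1 was at 1412, 712, 586 and 654 CPM in 3-month lesions, against 1549.6, 1019.7, 1233 and 872 CPM in eutopic uterus, and at 1542, 834, 1409.9 and 911 CPM in 1-month lesions, against 1494, 922, 1044 and 1029.8 CPM in eutopic uterus. Col4a2 was at 742, 444, 388 and 483 CPM in 3-month lesions, against 952, 568, 702 and 501 CPM in eutopic uterus, and at 894, 540.2, 811 and 548 CPM in 1-month lesions, against 883, 541, 597 and 582 CPM in eutopic uterus. In all 4 comparisons the groups overlapped, and neither gene was called (log2 -0.47 ± 0.29 and -0.40 ± 0.25 at 3 months). Lesion library 1 at 3 months was the highest of its group for both, and without the 3 lesion libraries that stood apart Col4a1 was lower by the test (log2 -0.92, edgeR adjusted p = 0.0213).

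The chains that were called were α5 and α6, whose genes are a pair transcribed away from each other on the X chromosome, with promoter windows 842 bases apart. Col4a6 (ENSMUSG00000031273.17) was at 33.1, 36.5, 57.1 and 41.4 CPM in 3-month lesions, against 127, 137, 129 and 124 CPM in eutopic uterus. Every lesion library was below every eutopic library. Col4a6 fell by 1.62 ± 0.29 and Col4a5 by 1.23 ± 0.32 on the log2 scale at 3 months (edgeR adjusted p = 0.000269 and 0.00510), and both calls were kept under every alternative run. Col4a5 was at 114, 73.4, 102 and 57.7 CPM in 3-month lesions, against 239, 181, 213 and 179.9 CPM in eutopic uterus. In 1-month lesions Col4a6 was at 152, 73.2, 132 and 98.9 CPM, against 192, 120.1, 133 and 104 CPM in eutopic uterus, with a log2 difference of -0.26 ± 0.28 that was not called (edgeR adjusted p = 0.545). Col4a3 and Col4a4, the chains best known from the kidney, were not called at either time. Col4a4 was at 79.3 CPM in lesion library 1 of 3 months, whereas the 20 libraries of the other groups held 13.7 to 27.5 CPM.

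Types XV and XVIII are proteoglycan collagens of the basement membrane zone, and the end of type XVIII can be cut off as endostatin, an inhibitor of vessel growth. Col18a1 (ENSMUSG00000001435.16) was at 178, 158, 201 and 119 CPM in 3-month lesions, against 552, 481, 593 and 576 CPM in eutopic uterus. The groups were far apart, with a gap wider than the range of either. In 1-month lesions it was at 594, 303, 493 and 356 CPM, against 716, 561, 596 and 516 CPM in eutopic uterus, with overlap. Col18a1 fell by 1.74 ± 0.23 on the log2 scale at 3 months (edgeR adjusted p = 1.98e-05), the smallest p of the 41 genes, and was not called at 1 month (log2 -0.44 ± 0.23, edgeR adjusted p = 0.168). Without the libraries that stood apart the 3-month change was -1.78. Col15a1 was at 114, 581, 217 and 243 CPM in 3-month lesions, against 984, 714, 935 and 781 CPM in eutopic uterus, and fell by 1.56 ± 0.39 on the log2 scale (edgeR adjusted p = 0.00337, and 0.0545 in a fit of the compared groups alone). Col7a1, the chain of the anchoring fibrils under epithelium, was at 175, 242, 179 and 172 CPM in 1-month lesions, against 69.0, 91.6, 90.0 and 88.1 CPM in eutopic uterus, without overlap, but was not called (log2 1.20 ± 0.61, edgeR adjusted p = 0.168). In 3-month lesions it was spread over 3.60, 17.1, 169 and 114 CPM, against 90.5, 61.8, 61.7 and 93.3 CPM in eutopic uterus. These libraries also enter the standard error and p given for 1 month, since the fit estimated the spread of a gene over all 24 libraries.

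Markers of cell types that basement membranes surround or underlie were read beside these values. Summed smooth muscle markers (7 genes) were 2179.7 to 7117 CPM in 3-month lesions, 6503 to 9685 in 1-month lesions, 7240.0 to 14670.2 in 3-month and 8270.3 to 13126 in 1-month eutopic uterus. Summed endothelial markers (6 genes) were 369.8 to 652 CPM in 3-month lesions, 462 to 629 in 1-month lesions, 545 to 768 in 3-month and 735 to 818 in 1-month eutopic uterus. Smooth muscle sums did not overlap between lesions and eutopic uterus at 3 months and overlapped at 1 month. Endothelial sums overlapped at 3 months and did not overlap at 1 month. All genes of both lists were detected in every library. Their part in the results was not tested.

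Of the fibrillar genes, Col1a1 was at 473, 2612, 2867 and 2326 CPM in 3-month lesions, against 7872, 3844, 3109 and 3090.1 CPM in eutopic uterus. All 4 lesion libraries were below all 4 eutopic libraries, with lesion library 1 far below the others and eutopic library 1 far above. In 1-month lesions Col1a1 was at 5016, 3197, 5118 and 3479 CPM, against 5099.6, 3181, 2647 and 2572 CPM in eutopic uterus, with overlap. Col1a1 fell by 1.11 ± 0.39 on the log2 scale at 3 months (edgeR adjusted p = 0.0283). The call was lost without eutopic library 1 (log2 -0.70, edgeR adjusted p = 0.153) and without the lesion libraries that stood apart (log2 -0.79, edgeR adjusted p = 0.0770).

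Col3a1, the chain of the fine reticular fibres, was at 1068, 5166, 3248 and 2412 CPM in 3-month lesions, against 10007, 5099.6, 5169 and 4162 CPM in eutopic uterus. Lesion library 2 lay within the eutopic range and the others below it. Col3a1 fell by 1.04 ± 0.36 on the log2 scale (edgeR adjusted p = 0.0256), a call also lost without eutopic library 1 (adjusted p = 0.124, edgeR). In 1-month lesions it was at 7393, 3867, 6319 and 4838 CPM, against 7315, 4819, 4111 and 3654 CPM in eutopic uterus, and was not called.

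Col1a2, the second type I chain, was at 967, 3175, 2847 and 2637 CPM in 3-month lesions, against 6949.9, 3337, 3281 and 2734 CPM in eutopic uterus, and at 5198, 3049, 4919 and 3721 CPM in 1-month lesions, against 4703, 2822, 2769 and 2600.1 CPM in eutopic uterus. Col5a1, a type V chain that sets fibre diameter, was at 173, 409, 364 and 313 CPM in 3-month lesions, against 845, 429.8, 412 and 354 CPM in eutopic uterus, and at 624, 421, 633 and 415 CPM in 1-month lesions, against 609, 395, 368 and 311 CPM in eutopic uterus. Neither was called at 3 months (log2 -0.76 ± 0.31 and -0.70 ± 0.28, edgeR adjusted p = 0.0574 and 0.0541) or at 1 month (log2 0.40 ± 0.31 and 0.33 ± 0.28). The one fibrillar gene called higher was Col11a2, a low type XI chain, which averaged 4.63 ± 1.21 CPM in 3-month lesions and 3.21 ± 0.499 CPM in the eutopic uterus (n = 4 each, ± SD; log2 0.53 ± 0.18, edgeR adjusted p = 0.0245). That call was lost without lesion library 4 (edgeR adjusted p = 0.130), and without eutopic library 1 0 fibrillar genes were called. At 1 month 0 of 10 tested fibrillar genes were called in edgeR or had an unadjusted p under 0.05. DESeq2 called 0 and limma voom 3, beside 22.7% and 45% of all genes. In edgeR 8 of 10 log2 differences were above 0, with a median of 0.20.

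Of the 4 transmembrane genes, Col17a1, a hemidesmosome collagen of epithelium, was the one called. It was at 0.537, 0.436, 0.754 and 1.12 CPM in 1-month lesions, against 1.23, 2.07, 2.43 and 1.44 CPM in eutopic uterus, and fell by 1.32 ± 0.33 on the log2 scale (edgeR adjusted p = 0.00978), a call kept under every alternative run. In 3-month lesions it was at 0.746, 0.745, 0.615 and 0.634 CPM, against 0.8286, 0.913, 1.85 and 1.03 CPM in eutopic uterus, and was not called (log2 -0.75 ± 0.33, edgeR adjusted p = 0.0747). Col13a1, Col23a1 and Col25a1, and Col26a1, were not called at either time.

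**Figure D4:**
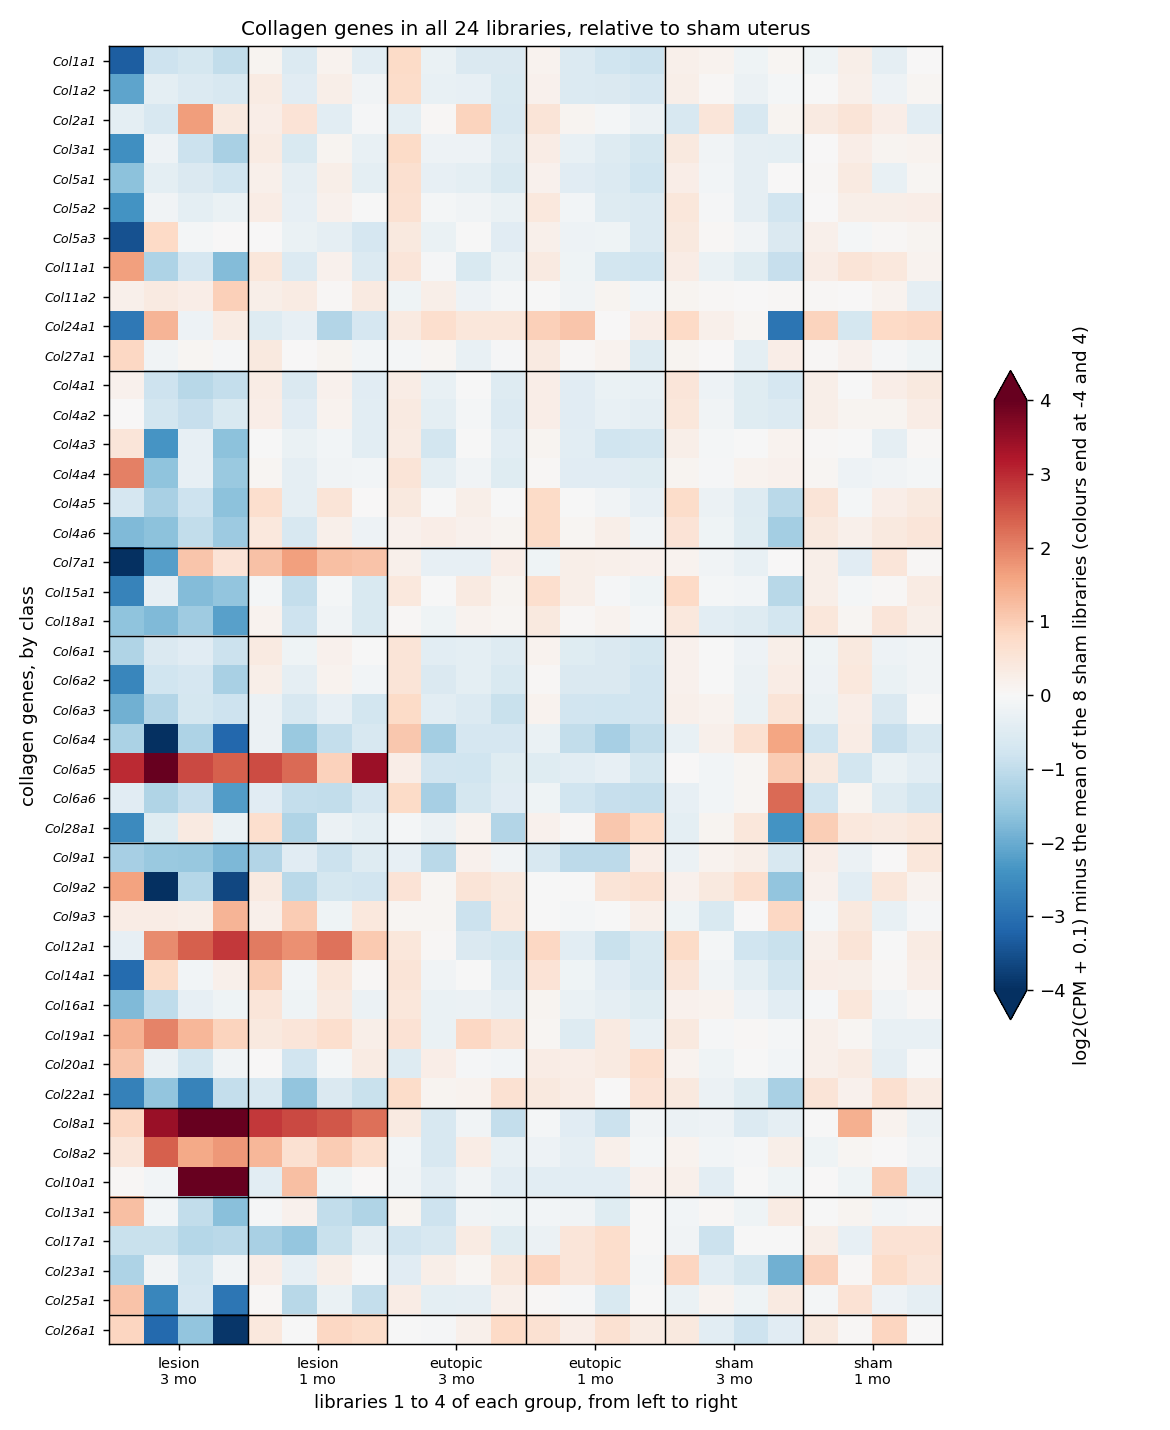
Log2(CPM + 0.1) of each of the 44 collagen genes (rows, in the class order of the fold-change plot) minus its mean over the 8 sham libraries, in all 24 libraries (columns, lesion, eutopic and sham, 3 months left of 1 month, libraries 1 to 4 within a group); red is above and blue below the sham mean, and colours end at -4 and 4. Col6a5, Col8a1 and Col8a2 are red in all 8 lesion columns, Col12a1 in 7 of 8, and 3-month lesion library 1 is blue for Col1a1, Col3a1 and Col5a2.

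3-month lesions were also set against 1-month lesions, from other mice. 7 of 41 collagen genes (17.1%) were called and all 7 fell, beside 10.8% of all genes (6.48% higher, 4.37% lower). 17 had an unadjusted p under 0.05, beside 25.9% of all genes. The 7 were Col18a1 (log2 -1.42 ± 0.23), Col4a6 (-1.45 ± 0.29), Col4a5 (-1.34 ± 0.32), Col6a2 (-1.18 ± 0.32), Col6a1 (-0.86 ± 0.23), Col16a1 (-0.85 ± 0.27) and Col9a1, which had 4 counts in all in 3-month lesions and 22 in 1-month lesions. The edgeR adjusted p was 0.00123 for Col18a1, 0.00417 for Col4a6 and 0.0116 for Col4a5. In a fit of the lesion groups alone Col9a1 was not tested and 0 of 40 collagen genes were called, beside 0% of all genes, with log2 changes of -1.44 for Col18a1, -1.47 for Col4a6 and -1.36 for Col4a5, close to those above (edgeR adjusted p = 0.256, 0.256 and 0.263). The count was 14 of 41 (34.1%) without 3-month lesion library 1, beside 16.9% of all genes. It was 4 of 42 (9.52%) without 1-month lesion library 1, beside 5.56%, and 3 of 42 (7.14%) without 1-month lesion library 3, beside 5.06%.

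Whether the difference between lesion and eutopic uterus itself changed from 1 to 3 months was tested as an interaction. 0 of 41 collagen genes were called in edgeR, beside 0.746% of all genes (0.44% higher, 0.306% lower), and 13 had an unadjusted p under 0.05, beside 14.8% of all genes. DESeq2 called 2 of 41 (4.88%), beside 3.93% of all genes, and limma voom 3 of 41 (7.32%), beside 2.1%. Col18a1 came closest, with a log2 change of the difference of -1.30 ± 0.32 (edgeR adjusted p = 0.0598), followed by Col4a6 at -1.36 ± 0.40 (edgeR adjusted p = 0.108). Across 23 alternatives Col18a1 was called in 7, with adjusted p from 0.00940 to 0.144. A gene called at 3 months and not at 1 month was not shown to differ between the times.

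Eutopic uterus was set against sham uterus at each time, which asks whether the disease is accompanied by a change in the uterus itself. 0 of 41 collagen genes were called at 3 months, beside 0% of all 21208 genes tested, and 0 of 41 at 1 month, beside 0.00943% (edgeR). DESeq2 called 0 at both times, beside 0.0401% and 0.0672% of all genes. Limma voom also called 0 at both, beside 0.0189% and 0.184%. An unadjusted p under 0.05 was reached by 2 collagen genes at 3 months and 1 at 1 month, beside 4.75% and 4.82% of all genes. The smallest p at 3 months belonged to Col22a1, with 26.1, 17.1, 17.3 and 23.96 CPM in eutopic and 20.7, 13.4, 11.2 and 6.30 CPM in sham uterus (log2 0.71 ± 0.26), and Col6a5 (log2 -0.74 ± 0.32), and at 1 month to Col8a1, with 4.68, 3.59, 2.66 and 4.46 CPM in eutopic and 4.92, 13.3, 5.48 and 4.21 CPM in sham uterus (log2 -0.86 ± 0.35), and Col11a1 (log2 -0.61 ± 0.29). At 1 month 32 of 41 differences were below 0, with a median log2 of -0.23 against 0.00 over all genes, and at 3 months 24 of 41 were, with a median of -0.03 against -0.01. The change of the difference between the times gave 0 of 41 calls, beside 0.00943%, and 1 collagen gene with an unadjusted p under 0.05, beside 3.47% of all genes.

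Levels in sham uterus show the spread between libraries of one group. Col1a1 was at 5377, 5098, 4135 and 4879 CPM in 3-month and 4111, 5470.1, 3588 and 4661 CPM in 1-month sham uterus. The eutopic values given above reached beyond the sham range on both sides at 3 months, and below it at 1 month. Col4a1 was at 1761, 1099, 896 and 783 CPM in 3-month and 1467, 1235, 1522 and 1630.5 CPM in 1-month sham uterus. 3-month and 1-month libraries of one tissue gave 0 of 41 calls in eutopic uterus (beside 0.00943% of all genes) and 0 of 41 in sham uterus (beside 0%). DESeq2 called 0 in both, beside 0.0555% and 0.748% of all genes. With limma voom 0 and 5 of 41 (12.2%) were called, beside 0.033% and 4.88%. In edgeR 1 and 7 collagen genes had an unadjusted p under 0.05, beside 2.45% and 10.7% of all genes. In sham uterus Col18a1 was at 721, 403, 376 and 326 CPM at 3 months and 745, 566, 759 and 638 CPM at 1 month (log2 -0.57 ± 0.20, edgeR adjusted p = 0.366). In eutopic uterus the smallest p belonged to Col20a1 (log2 -0.49 ± 0.18, edgeR adjusted p = 1.00). 3-month sham library 4 stood apart in several chains: Col6a6 was at 249 CPM there and at 40.7 to 54.1 CPM in the other 3, and Col24a1 at 1.96 CPM against 16.5 to 27.3. Col4a6 was at 44.2 CPM there (80.9 to 166 in the other 3), Col4a5 at 86.0 (128 to 303) and Col15a1 at 338 (670 to 1261). For these genes that sham library lay inside the range of 3-month lesions. Its Col18a1, at 326 CPM, lay above that range (119 to 201 CPM).

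Ratios of counts within a library do not depend on its total. They are not corrected for gene length, so only their change between libraries is read. Col4a1 and Col4a2 also overlap each other in the RefSeq gene table, as do Col4a3 and Col4a4, and counting without strand could share reads within either pair. Col4a1 to Col4a2, the pair whose promoters share 78 bases, ran from 1.35 to 1.902 over the 24 libraries, a 1.40-fold range, while Col4a1 itself ran from 586 to 1761 CPM. Col6a1 to Col6a2 spanned a 2.72-fold range, Col1a1 to Col1a2 2.56, Col4a5 to Col4a6 2.80 and Col4a3 to Col4a4 3.38. In all 5 pairs 3-month lesion library 1 gave one end of the range. Without it the range was 1.40-fold for Col4a1 to Col4a2, 1.40-fold for Col6a1 to Col6a2, 1.52-fold for Col1a1 to Col1a2, 1.63-fold for Col4a5 to Col4a6 and 1.98-fold for Col4a3 to Col4a4, so the type VI pair then varied as little as Col4a1 to Col4a2. The windows of Col4a5 and Col4a6 in the table share no bases and lie 842 bases apart.

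Against Col1a1, type VIII and type XII transcripts set lesions apart without overlap. Col8a1 to Col1a1 was 0.0189, 0.0210, 0.0328 and 0.0375 in 3-month lesions and 0.00719, 0.00970, 0.00554 and 0.00661 in 1-month lesions, and 0.000810 to 0.00173 in eutopic and 0.000782 to 0.00244 in sham uterus. Col12a1 to Col1a1 was 0.133, 0.112, 0.145 and 0.241 in 3-month lesions and 0.0666, 0.0875, 0.0697 and 0.0469 in 1-month lesions, and 0.0136 to 0.0275 in eutopic and 0.00875 to 0.0249 in sham uterus. 3-month lesion library 1, low for Col12a1 in CPM (62.9, inside the eutopic range), lay with the other lesions in this ratio. This library, the one with the ovarian transcripts, also had low Col1a1, at 473 CPM against 2326 to 2867 CPM in 3-month lesion libraries 2 to 4. The ratio does not show that Col12a1 rose there. Both ratios were chosen after the values of these genes were seen and carry no test.

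**Figure D5:**
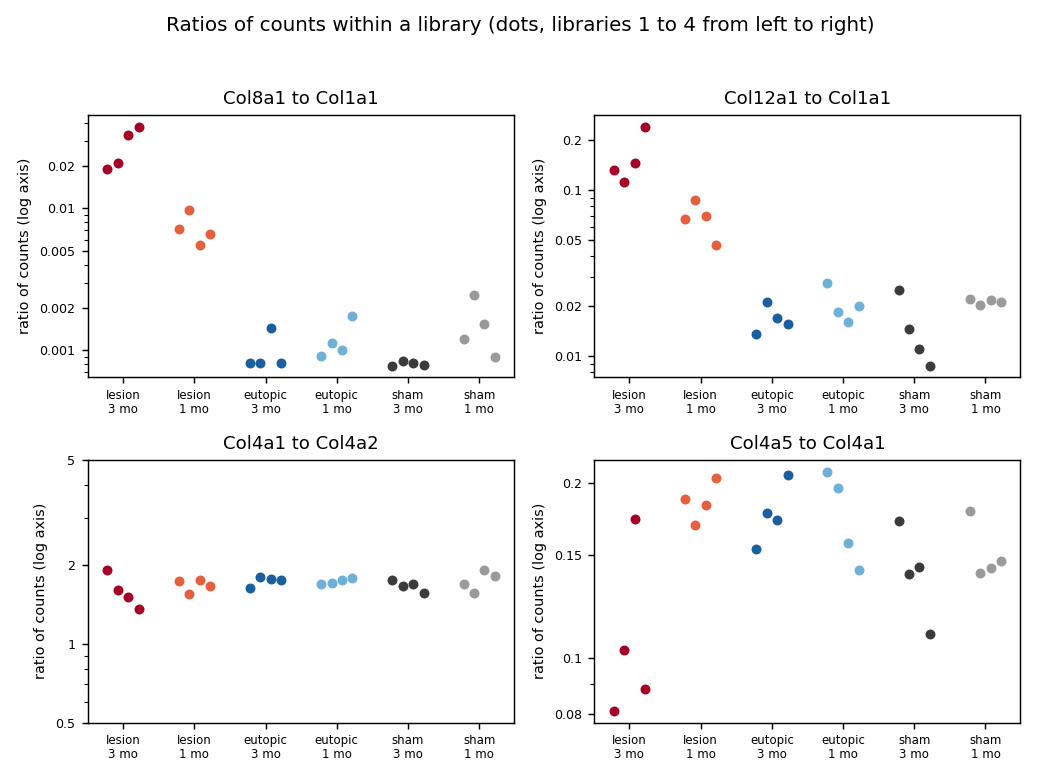
Ratios of counts of 4 gene pairs (y axis, logarithmic) in each library of the 6 groups (x axis, lesion, eutopic and sham, 3 months left of 1 month). Col8a1 to Col1a1 and Col12a1 to Col1a1 are highest in 3-month lesions, then 1-month lesions, then uterus, without overlap, Col4a1 to Col4a2 stays between 1.35 and 1.902, and Col4a5 to Col4a1 runs from 0.0810 to 0.174 in 3-month lesions.

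Genes that fold, process, bind or sense collagen were followed in 4 lists. Shares are of each list's tested genes, to be read beside all genes, of which 23.4% were called higher and 17.1% lower at 3 months and 11.9% and 8.71% at 1 month. Of 18 folding and modifying enzymes, 2 rose (11.1%) and 7 fell (38.9%) at 3 months, with a median log2 change of -0.09 against 0.04 over all genes. At 1 month 1 rose and 1 fell (5.56% each). Serpinh1, the collagen chaperone of the endoplasmic reticulum, averaged 612 ± 72.4 CPM in 3-month lesions and 1233 ± 239.7 CPM in the eutopic uterus (n = 4 each, ± SD; log2 -1.01 ± 0.17, edgeR adjusted p = 0.000134). P4ha2, a prolyl hydroxylase subunit, Plod1, a lysyl hydroxylase, and Crtap, a part of the prolyl 3-hydroxylation complex, changed by log2 -1.33 ± 0.26, -0.76 ± 0.16 and -0.57 ± 0.12 at 3 months. At 1 month P3h2, another prolyl 3-hydroxylase, rose by 0.49 ± 0.16 and Crtap changed by -0.36 ± 0.12.

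Of 13 genes of propeptide processing and cross-linking, 3 rose (23.1%) and 1 fell (7.69%) at 3 months, with the share that rose at that of all genes, and 3 rose (23.1%) and 0 fell at 1 month. Pcolce, an enhancer of propeptide cleavage (log2 1.13 ± 0.23), the propeptide protease Adamts2 (0.69 ± 0.21) and the lysyl oxidase-like enzyme Loxl4 (1.47 ± 0.36) rose at 3 months, and the propeptide protease Adamts14 fell (-0.82 ± 0.29). Loxl4 (1.88 ± 0.37), Loxl1 (1.02 ± 0.32) and Adamts3 (1.28 ± 0.40) rose at 1 month.

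Of 9 small proteoglycans that bind fibrils, 5 rose (55.6%) and 0 fell at 3 months, with a median log2 change of 1.27 against 0.04 over all genes, and 1 rose (11.1%) at 1 month. Fmod, fibromodulin, averaged 159 ± 134 CPM in 3-month lesions and 21.1 ± 1.52 CPM in the eutopic uterus (n = 4 each, ± SD; log2 2.92 ± 0.53, edgeR adjusted p = 0.000286), with lesions from 17.2 to 304 CPM. Bgn, biglycan, rose at 3 months (1.75 ± 0.33) and 1 month (1.32 ± 0.33), and Prelp and Omd rose at 3 months (1.27 ± 0.29 and 2.08 ± 0.64). At 3 months lesions and eutopic uterus overlapped for each of Fmod, Bgn, Prelp and Omd. Prelp was at 85.0 to 321 CPM in lesions, against 61.8 to 103 CPM in eutopic uterus. Bgn was at 369.8 to 2292 CPM in lesions, against 365 to 417 CPM, and Omd at 1.75 to 21.8 CPM, against 0.995 to 3.20 CPM.

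Of 10 collagen receptors and uptake genes, 9 were tested, and 3 rose (33.3%) and 0 fell at each time. Itga11, an integrin chain that binds fibrillar collagen on fibroblasts, averaged 18.8 ± 10.5 CPM in 3-month lesions and 3.74 ± 1.36 CPM in the eutopic uterus (n = 4 each, ± SD; log2 2.33 ± 0.37, edgeR adjusted p = 0.000103). Lair1, an inhibitory collagen receptor of immune cells, rose at 3 months (2.81 ± 0.53) and 1 month (2.01 ± 0.52). Summed T cell markers were 7.94 to 592 CPM in 3-month and 115 to 363 CPM in 1-month lesions, against 18.2 to 43.2 and 24.7 to 30.5 CPM in eutopic uterus of those times, and their part in the Lair1 change was not tested. Itga2, an integrin chain for collagen on epithelium and platelets, rose at 3 months (1.93 ± 0.49) and 1 month (1.71 ± 0.49), and its partner Itgb1 rose at 1 month (0.33 ± 0.11).

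These counts moved with single libraries. At 1 month, leaving out any 1 of the 8 libraries left 0 or 1 enzymes called, beside 11.3% to 20.6% of all genes. Processing and cross-linking genes numbered 5 without 1-month eutopic library 1, 2 without lesion library 3 or 4, and 1 without any of the other 5, and receptors numbered 4 without eutopic library 1 and 1 without lesion libraries 2 or 4 or eutopic libraries 3 or 4. At 3 months, processing and cross-linking genes numbered 6 without lesion library 1 and 2 without eutopic library 4, beside 47.8% and 34.9% of all genes. In a 3-month fit of the compared groups alone, 5 enzymes, 1 processing gene, 2 proteoglycans and 3 receptors were called, beside 15.8% of all genes.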

How the data were processed

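Total RNA was sequenced from 24 libraries. The deposited table holds raw read counts per gene made by the authors, and, per the submitters' processing notes, bcl2fastq 1.9.0, STAR 2.7.9a and edgeR were among their tools and mm39 was their genome build. The annotation release, the counting mode and its use of strand were not given in the sources used here. Libraries were grouped by their labels. The labels do not tie a library to an animal, so p-values measure the spread between these samples, which may be technical.

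Counts were tested with edgeR 4.0.16 in R 4.3.3 (filterByExpr on the group, TMM factors, robust quasi-likelihood fit, Benjamini-Hochberg adjustment over all genes tested). Lesion comparisons were fitted on 24 libraries (22249 genes tested) and uterine comparisons on 16 (21208). Each fit estimated the spread of a gene over all its groups together. Standard errors and p-values are thus not those of the compared groups alone. A call is an adjusted p under 0.05, a standard error is the size of the log2 fold change divided by the square root of the F statistic, and CPM uses TMM factors over 24 libraries. The fit was tested on simulated data. DESeq2 1.42.0, limma 3.58.1 (voom), other scalings and filters, a replicate block and leaving out libraries were alternatives.

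Exon lengths were those of GENCODE M21 (GRCm38), matched by gene ID for 44 of 44 collagen genes. The collagen genes, the classes and the lists were chosen with earlier results of these data known. Values per library are given for 8 abundant chains and for up to 3 of the largest called rises and falls of each lesion comparison with a mean log2 CPM of at least 0. Up to 4 genes per list and comparison were named, by p. Values of other collagen genes were chosen after they were seen. Every same-numbered pair of libraries correlated above 0.1 only between eutopic uterus at 3 months and at 1 month (0.105 to 0.202), and those are different mice. The blocked fit gave 0 calls there.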

Additional observations from a re-analysis of the deposited data

Results flagged for a closer look

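In 108 groups of 4 values, a library was picked out where its gap to the nearest other library took up more of the whole range of its group than Dixon's 95% limit for 4 values allows. That held for 20 groups, always for the highest library, and chance alone picks out about 1 in 20. The genes rise and fall together, so the 20 are not independent of each other.

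Eutopic library 1 at 3 months accounted for 8 of them. It had 7872 CPM for Col1a1 (the other 3 libraries 3090.1 to 3844), 6949.9 for Col1a2 (2734 to 3337), 845 for Col5a1 (354 to 429.8), 2779 for Col6a1 (1340.0 to 1482) and 1212 for Col6a4 (221 to 360.3). Its sums were 26778 CPM for fibrillar genes (10977 to 13431), 8459 for type VI genes (3523 to 4003) and 40662 for all collagen genes (18164 to 21145).

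Eutopic library 1 at 1 month accounted for 5, with 4703 CPM for Col1a2 (2600.1 to 2822), 883 for Col4a2 (541 to 597), 140.1 for Col12a1 (42.5 to 58.8), and sums of 2918 for type IV genes (1789 to 1962) and 5696 for type VI genes (3224 to 3575).

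Among lesions at 3 months, library 1 had 1412 CPM for Col4a1 (586 to 712) and a type IV sum of 2402 (1159.9 to 1275), and library 2 had 94.5 CPM for Col6a5 (12.4 to 18.7). In sham uterus, library 2 at 1 month had 2512 CPM for Col6a1 (1662 to 1741), 13.3 for Col8a1 (4.21 to 5.48) and 702 for Col6a4 (299.6 to 365), and library 4 at 3 months had 4.73 CPM for Col6a5 (2.12 to 2.41). 0 collagen genes had lesion and eutopic values that moved in opposite directions at the times without overlap.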

How the results depend on the processing

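Percentages in this paragraph are shares of all genes called in the same fit. In the lesion comparison at 1 month 6 collagen genes were called (beside 20.6%), and 16 with limma voom (beside 45%). A fit of the compared groups alone called 8 of 40 (beside 33.4%). Leaving out 1 library gave 5 to 7 (beside 11.3% to 20.6%). At 3 months 17 were called (beside 40.5%), and 8 in a fit of the compared groups alone (beside 15.8%). Leaving out 1 library gave 10 (without eutopic library 1, beside 37.4%) to 22 (without lesion library 1, beside 47.8%). Between 3-month and 1-month lesions 7 were called (beside 10.8%), and 0 in a fit of those groups alone (beside 0%). Leaving out 1 library gave 3 (without 1-month lesion library 3, beside 5.06%) to 14 (without 3-month lesion library 1, beside 16.9%). It gave 4 without 1-month lesion library 1 (beside 5.56%). For the change of the lesion difference between the times 0 were called (beside 0.746%). DESeq2 called 2 (beside 3.93%), limma voom 3 (beside 2.1%) and the replicate block 2 (beside 0.719%). Without the 3 libraries that stood apart 3 were called (beside 3.33%). Leaving out 1 library gave 0 to 3. There were 3 without 3-month lesion library 3 (beside 4.37%), 2 without 3-month lesion library 1 (beside 3.96%) and 1 without 1-month lesion library 2 (beside 1.68%). Between 3-month and 1-month sham uterus 0 were called (beside 0%), and 5 with limma voom (beside 4.88%). Leaving out 1 library gave 0 to 4, with 4 without 3-month sham library 1 (beside 1.98%). The eutopic comparisons with sham, their change, and eutopic uterus between times stayed at 0 calls under each alternative run (beside 0% to 0.184%). Log2 changes were refitted only for called chains, the 8 abundant chains and, where fewer than 2 were called, the 2 of smallest p, and of these the ones that turned sign were those of Col4a1 at 1 month, with 0.08 in the lesion comparison and -0.0878 to 0.235 when 1 library was left out, below 0 without lesion library 1, lesion library 3 or eutopic library 2, and of Col4a2, with 0.11 but -0.0333 (without lesion library 1) to 0.286; neither gene was called. For the counts the cause was not tested. Leaving out libraries or groups leaves fewer samples and also changes the libraries from which the spread of each gene is estimated. With the replicate block the lesion comparisons gave 7 calls at 1 month (beside 22.3%) and 17 at 3 months (beside 41.1%). In that fit 5 genes differed between lesions of both times (beside 10.5%), and the uterine comparisons gave 0 (beside 0% to 0.00943%). Same-numbered lesion and eutopic libraries had correlations of 0.0732 to 0.191 at 1 month and 0.00347 to 0.337 at 3 months, and 4 of 4 and 3 of 4 correlated best with their own number, which is a hint from the data, not the design. Depth limits Col2a1, Col19a1 and Col9a1, and 4 libraries a group limit the rest. Col10a1 was left out of the main test because its counts were high only in 3-month lesion libraries 3 and 4 (222 and 326).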
